A study of Sus scrofa with 12 samples.

Results

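Small heat shock proteins are chaperones built around a shared alpha-crystallin domain. They form large, changeable assemblies that hold damaged or unfolded proteins until other chaperones refold them or until they are degraded. Skeletal muscle is rich in them, and several sit on the Z-disc, on desmin and on titin, where they protect filaments that are stretched with every contraction. The 7 genes described here were HSPB7, CRYAB (alphaB-crystallin), HSPB1, HSPB8, HSPB6, HSPB2 and HSPB3, chosen as the muscle members of the family. They were 7 of the 6765 genes named by a single symbol on the array, and 9 of 10069 such probe sets, because CRYAB and HSPB6 were each read by a pair of probe sets. All 9 probe sets passed the filter on low signal. HSPB7 was chosen by its fall in signal after birth, measured on these arrays, so its values at day 0 against later ages are given only as a description and carry no test.

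The muscle came from newborn pigs (Sus scrofa) at 4 ages: day 0 (sampled within a day of birth), day 7, day 14 and day 21. Each age had 3 arrays, labelled as biological replicates, and no animal carried an agent or allele that the labels name. The muscle sampled, the breed, the sex and whether a replicate was a single piglet or a pool are not given in the sources used here. A p-value therefore measures the spread between these samples. Values are linear MAS5 signals on Affymetrix arrays, and changes are differences of mean log2 signal.

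Every array carried the same 2% trimmed mean of 500.1, and median signals ran from 146.2 to 172.6. Day 0 arrays stood apart in several control probe sets. Their hybridization controls were dimmer (mean log2 12.09 to 12.26 at day 0, 12.40 to 12.79 later), and so were their ribosomal RNA probe sets (18S log2 11.22 to 12.23 at day 0 and 12.69 to 13.45 later, 28S 10.35 to 11.27 and 12.20 to 13.33). The log2 ratio of 3′ to 5′ poly-A spike probe sets was 0.69, 1.59 and 0.66 on the newborn arrays and 0.37 to 0.67 later, so newborn replicate 2 alone stood far off. The hybridization control and ribosomal RNA values move with every difference between newborn and later arrays given here. The spike ratio does so mainly through newborn replicate 2. Scaling on the hybridization controls moved the median change of all probe sets to -0.31, -0.35 and -0.36 at days 7, 14 and 21. It turned the calls at day 21 from 952 higher and 705 lower to 397 higher and 2486 lower, with like turns at day 7 (829 and 524 to 358 and 1636) and day 14 (971 and 806 to 396 and 2554). Median centring turned them to 604 and 736, 733 and 1226, and 739 and 1032 at days 7, 14 and 21. Muscle fibre markers were bright on all arrays: the summed signal of 9 genes was 241897 to 319169 at day 0 and 301804 to 402810 later. The 4 heart markers with a probe set summed to 39.2 to 635 over the 12 arrays, and NPPA and RYR2 were dim throughout. Smooth muscle and pericyte markers (6 genes), cells that also hold small heat shock proteins, summed to 11848 to 14494 at day 0, 25450 to 26644 at day 7, 18347 to 24901 at day 14 and 16343 to 19774 at day 21. Endothelial markers (7 genes) summed to 4752 to 5749 at day 0, 7793 to 8568 at day 7, 7394 to 8290 at day 14 and 5692 to 8165 at day 21. Erythroid markers (4 genes) summed to 1687 to 2845 at day 0 and 1362 to 1566 at day 7, and overlapped the newborn range at the later ages, while adipocyte, macrophage and fibroblast sums overlapped it at every age. The part of these controls and cell types in the results was not tested. In whole muscle, fewer cells of a type and less RNA per cell cannot be told apart.

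HSPB7, a small heat shock protein of heart and skeletal muscle that binds filamin, (probe set Ssc.13806.1.S1_at) had signals of 11202, 9192 and 4977 on the day 0 arrays. At day 7 its signals were 1411, 2022 and 1050.5. At day 14 they were 1764, 1166 and 1594, and at day 21 they were 1592, 2219 and 1439. Every day 0 array was above every later one, and the later ages overlapped each other. Mean signals were 8457 ± 3177 at day 0, 1494.5 ± 491 at day 7, 1508 ± 308 at day 14 and 1750.0 ± 413 at day 21 (SD, n = 3 each). The log2 change from birth was -2.47 at day 7, -2.43 at day 14 and -2.22 at day 21 (SE 0.31), or 5.55-, 5.39- and 4.65-fold lower. These were the 9th, 17th and 26th most negative changes among the 14399 probe sets tested.

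What the choice of HSPB7 did not use is its course after the first week. Between day 7 and day 14 it differed by 0.04 ± 0.31 and between day 14 and day 21 by 0.21 ± 0.31 (log2, SE; limma with Benjamini-Hochberg adjustment, adjusted p = 0.995 and 0.9998). Neither step passed the threshold of 0.05. The spread among the newborn arrays was wide, with replicate 1 at 11202 and replicate 3 at 4977, while the 9 later arrays lay between 1050.5 and 2219 with a median of 1592.

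CRYAB, the desmin-binding chaperone alphaB-crystallin, was the other member with newborn arrays clear of all later ones. Its bright probe set (Ssc.10931.1.S1_at) read 31178, 25975 and 18814 at day 0. It read 7884, 11592 and 8759.8 at day 7, 11919, 6427 and 10436 at day 14, and 8006, 12181 and 9234 at day 21. The lowest newborn array exceeded the highest later array, a pattern shown by 7.15% of all probe sets tested. The means were 25322 ± 6208 at day 0 and 9412 ± 1938, 9594 ± 2841 and 9807 ± 2146 at days 7, 14 and 21 (SD, n = 3 each).

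CRYAB fell by 1.42 at day 7, 1.42 at day 14 and 1.36 at day 21 (log2, SE 0.25; limma with Benjamini-Hochberg adjustment, adjusted p = 0.0058, 0.0043 and 0.00555), which is 2.67-, 2.67- and 2.57-fold lower than at birth. These 3 comparisons share the day 0 arrays. The fall at day 7 lost its call only when the 3′ to 5′ ratio of the poly-A spikes entered the fit, where its size was -1.41 (adjusted p = 0.0654), and across the left-out arrays the day 7 change ran from -1.62 to -1.25. CRYAB also fell at day 14 and at day 21 in all 24 alternatives, scaling on the hybridization controls included.

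A second CRYAB probe set (Ssc.19588.2.A1_at) was dim and less clear. It read 1052, 276.5 and 305.4 at day 0, 157.3, 327.3 and 325.3 at day 7, 157.7, 135.7 and 249.3 at day 14, and 245.6, 179.4 and 272.9 at day 21. Newborn replicate 1 stood far above the rest, and the day 7 arrays overlapped the newborn ones. Its changes of -0.80, -1.35 and -0.96 (SE 0.46) did not pass (adjusted p = 0.302, 0.0719 and 0.197). The day 14 fall passed with median centring (-1.47, adjusted p = 0.0497) and with scaling on hybridization controls (-1.72, 0.0263). Without newborn replicate 1 the changes were -0.18, -0.73 and -0.34. Its name shares the cluster number of the HSPB2 probe set, and CRYAB and HSPB2 lie next to each other and overlap in the RefSeq annotation of Sscrofa11.1, so which transcript it reads is uncertain. The mean of both CRYAB probe sets gave -1.11, -1.39 and -1.16 (adjusted p = 0.0428, 0.0135 and 0.0297).

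**Figure D1:**
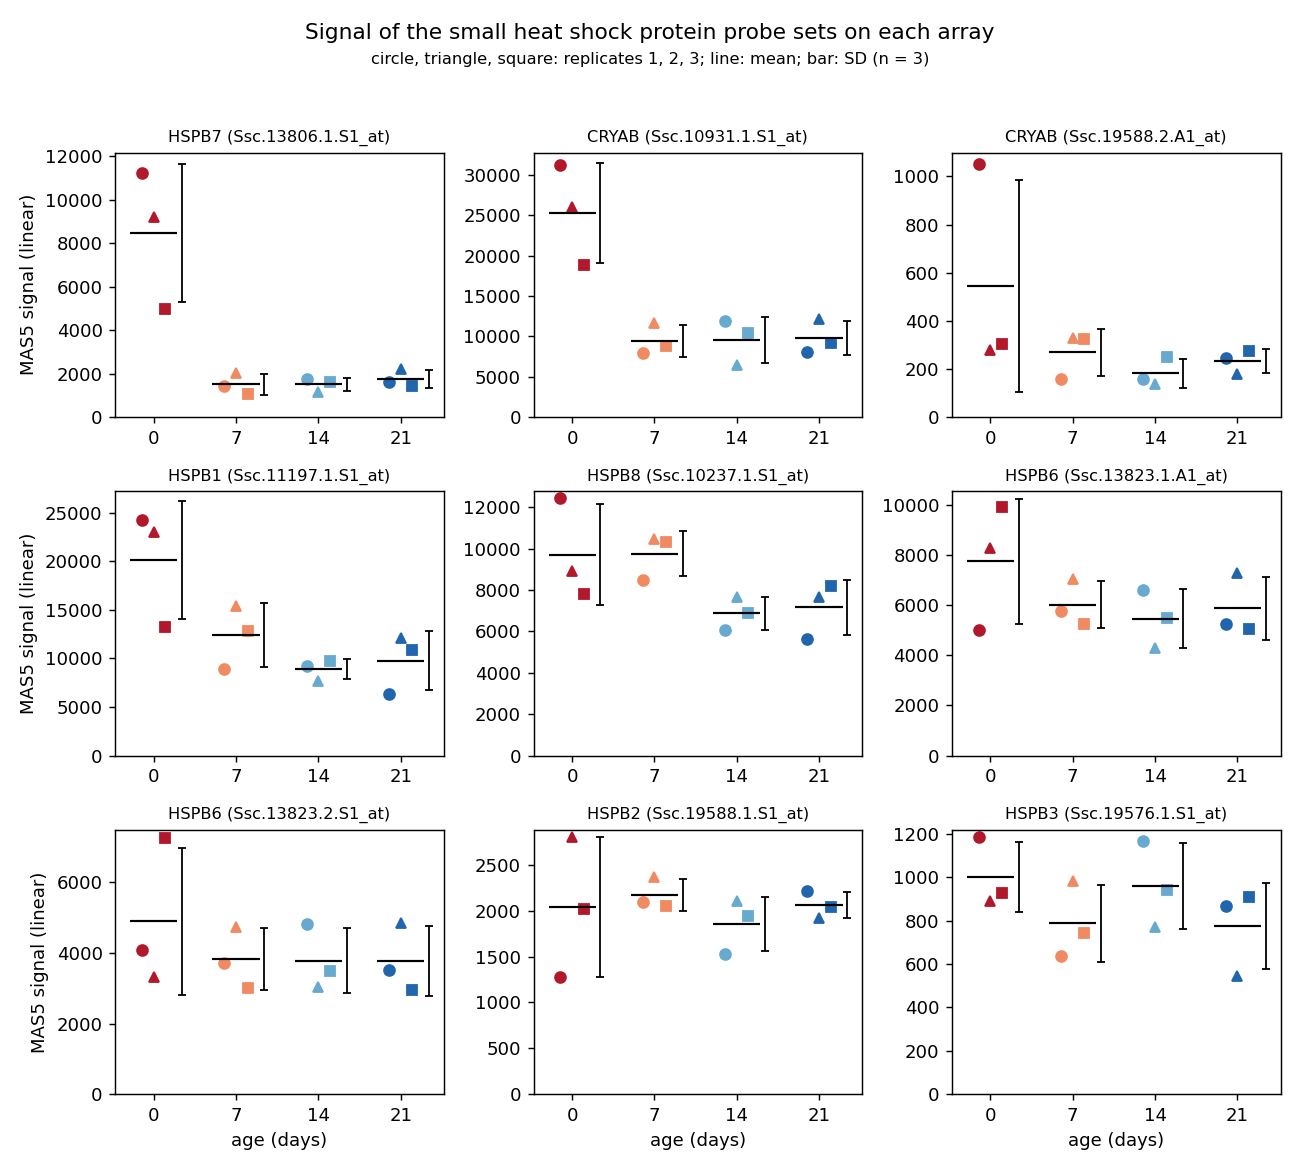
MAS5 signal (linear, from 0) of the 9 small heat shock protein probe sets against age in days, with a marker for each of the 12 arrays, a line at the mean of 3 arrays and a bar for the SD. HSPB7 and the bright CRYAB probe set are the panels in which every newborn array lies above every later one, with HSPB7 at 4977 or more at day 0 and at most 2219 later.

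HSPB1, the widely expressed heat shock protein that binds actin and is phosphorylated under stress, was lower after birth with more overlap. Its signals (Ssc.11197.1.S1_at) were 24286, 22977 and 13185 at day 0 and 8924, 15410.3 and 12848 at day 7. They were 9199, 7719.8 and 9783 at day 14 and 6315, 12120.3 and 10901 at day 21. The newborn arrays overlapped those of day 7 but lay above all of those of day 14 and of day 21. The change was -0.69 ± 0.28 at day 7 (adjusted p = 0.146), and HSPB1 fell by 1.13 ± 0.28 at day 14 and by 1.05 ± 0.28 at day 21 (log2, SE; limma, Benjamini-Hochberg adjusted p = 0.0199 and 0.0296), or 2.20- and 2.07-fold.

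The HSPB1 calls rested on few arrays. At day 14 the call was lost without newborn replicate 1 (-0.97, adjusted p = 0.0623) or 2 (-1.01, 0.0710), and without day 14 replicate 2 (-1.04, 0.0719) or 3 (-1.21, 0.0509). At day 21 it was lost without newborn replicate 1 (-0.89, 0.0904) or 2 (-0.93, 0.0948), and without day 21 replicate 1 (-0.76, 0.120) or 3 (-1.15, 0.0561). With that spike ratio in the fit the changes were -0.95 (0.163) and -0.91 (0.122). All these values kept the negative sign. At day 7 a call appeared without newborn replicate 3 (-0.97, 0.0354) and with scaling on hybridization controls (-0.99, 0.0435).

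HSPB8 works with BAG3 to send misfolded muscle proteins to selective autophagy. Its probe set (Ssc.10237.1.S1_at) read 12442, 8919.9 and 7790.4 at day 0 and 8503.5, 10493 and 10303 at day 7, which overlapped. At day 14 it read 6061, 7683 and 6872, below every newborn array, and at day 21 5637, 7669.7 and 8177, which overlapped again. Its changes from birth of 0.03, -0.48 and -0.43 (SE 0.19) did not pass (limma, adjusted p = 0.943, 0.122 and 0.169). With scaling on hybridization controls, the day 14 and day 21 changes were -0.84 and -0.81 and passed (adjusted p = 0.0130 and 0.0167). Between day 7 and day 14 every HSPB8 array of the later age lay below every array of the earlier, as for 7.33% of all probe sets. That step was -0.51 ± 0.19 and did not pass (limma adjusted p = 0.770).

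HSPB6, which in muscle is phosphorylated by protein kinase A and binds 14-3-3 proteins, had a pair of probe sets. The brighter (Ssc.13823.1.A1_at) read 5015, 8291 and 9925 at day 0, 5753, 7054 and 5227 at day 7, 6621, 4291 and 5478 at day 14, and 5250.5, 7297 and 5056 at day 21. The dimmer (Ssc.13823.2.S1_at) read 4097, 3318 and 7265 at day 0, and 2939.6 to 4859 on the 9 later arrays. The ages overlapped on both, and newborn replicate 3 was the highest array on each. Changes lay between -0.47 and -0.30 with SE of 0.25 and 0.29, and none passed (adjusted p between 0.234 and 0.561). The brighter one passed at day 14 without newborn replicate 1 (-0.75, adjusted p = 0.0444) and with scaling on hybridization controls (-0.84, 0.0395).

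HSPB2 and HSPB3, which form a complex with each other in muscle, had no call at any age. HSPB2 (Ssc.19588.1.S1_at) read 1279.8, 2806 and 2023 at day 0, with 1532 to 2370.1 on the later arrays, and its changes were 0.16, -0.07 and 0.09 (SE 0.24; limma, adjusted p = 0.716, 0.879 and 0.850). HSPB3 (Ssc.19576.1.S1_at) read 1187, 890.3 and 926.9 at day 0 and 547.2 to 1167 later, with changes of -0.36, -0.07 and -0.39 (SE 0.24; adjusted p = 0.390, 0.890 and 0.322). Newborn and later arrays overlapped for both genes. The widest difference between HSPB2 age means was that of day 14 against day 7, at -0.23 ± 0.24 (limma adjusted p = 0.980).

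**Figure D2:**
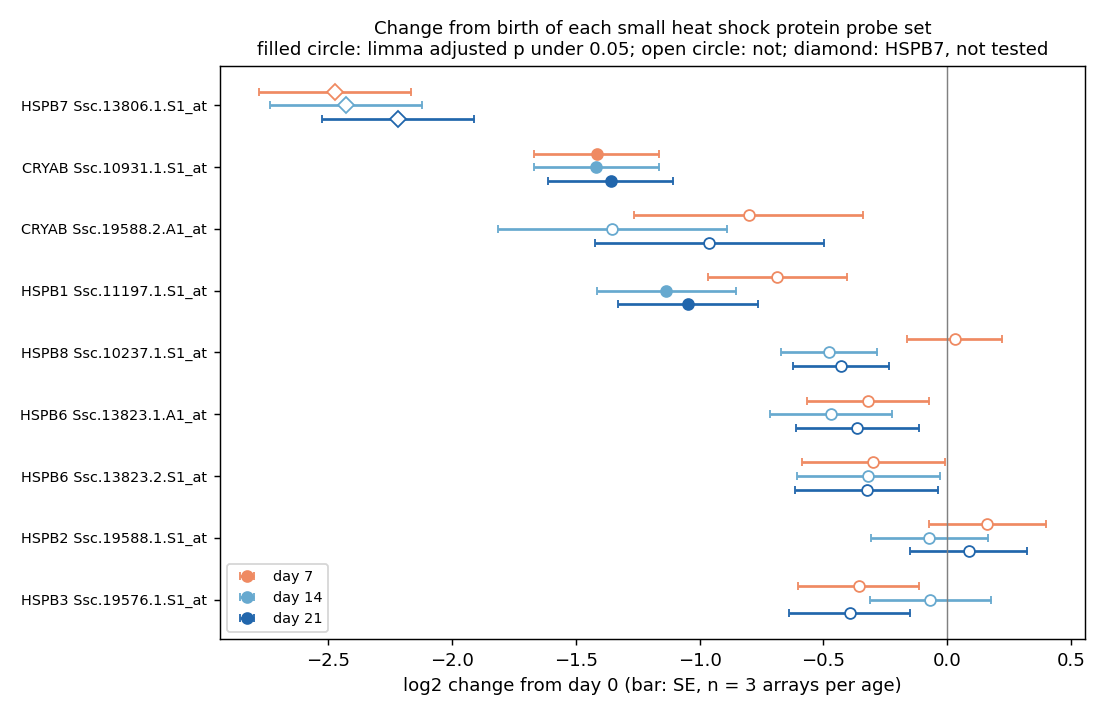
Change in log2 signal from day 0 to days 7, 14 and 21 for the 9 probe sets, with the SE from limma as bars; filled circles passed an adjusted p of 0.05, open circles did not, and diamonds mark HSPB7, which was not tested. HSPB7 lies at -2.47 to -2.22 and the bright CRYAB probe set at -1.42 to -1.36, while HSPB2 and HSPB3 lie between -0.39 and 0.16. The second CRYAB probe set lies at -0.80, -1.35 and -0.96, none of which passed.

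Apart from HSPB7, 1 of 8 probe sets was called at day 7, against 9.4% of all probe sets tested (3.64% lower and 5.76% higher). At day 14 it was 2 of 8, against 12.3% (5.6% lower, 6.74% higher), and at day 21 2 of 8, against 11.5% (4.9% lower, 6.61% higher). All these calls were falls, of CRYAB and HSPB1. The numbers with a lower mean were 6, 8 and 7 of 8, with medians of -0.34, -0.47 and -0.41, beside medians of 0.00, 0.02 and 0.02 over all probe sets. All arrays of the later age lay below all newborn arrays for 1, 4 and 3 of the 8, against 13.7%, 13.9% and 13.7% of all probe sets. The calls are thus those of CRYAB and HSPB1 and are no count for the family as a whole.

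The F test over the 4 ages called 1 of 8, CRYAB (adjusted p = 0.00713), against 8.88% of all probe sets, and gave HSPB1 an adjusted p of 0.0560. After the first week no member was called: 0 of 9 between day 7 and day 14 (1 at an unadjusted p under 0.05, HSPB8; 0.00694% of all probe sets called) and 0 of 9 between day 14 and day 21 (0 at an unadjusted p under 0.05; 0% of all called). The F test over days 7, 14 and 21 called none of them in limma (1 at an unadjusted p under 0.05, again HSPB8, adjusted p = 0.922; 0.00694% of all called). For CRYAB the day 14 mean differed from the day 7 mean by -0.00 ± 0.25 on the log2 scale.

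The change of the first week was then set against that of the third week, which shares no arrays with it. For CRYAB the first week's change was the more negative, with a difference of -1.47 ± 0.36 that did not pass (limma adjusted p = 0.0737). Without newborn replicate 3 it was -1.67 and passed (0.0260). In all, 0 of the 8 probe sets other than that of HSPB7 were called (1 at an unadjusted p under 0.05), against 0.889% of all probe sets.

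CRYAB and HSPB2 sit side by side in the genome. Their ratio was chosen after CRYAB had been seen to separate newborn from later arrays and HSPB2 not, so it is a description and carries no test. The within-array log2 ratio of CRYAB (bright probe set) to HSPB2 was 4.61, 3.21 and 3.22 at day 0 and at most 2.96 on any later array. Only its change can be read, since signals of different probe sets have no common scale. It was 3.68 ± 0.80 at day 0 (SD, n = 3) and 2.22 ± 0.42 later (SD, n = 9), a difference of 1.46. Without newborn replicate 1 the difference was 0.99, and leaving out any other array gave up to 1.69.

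Newborn arrays were not ordered alike by all members. HSPB7, the bright CRYAB probe set, HSPB1 and HSPB8 were each highest in newborn replicate 1 and lowest in replicate 3. The second CRYAB probe set was also highest in replicate 1 but lowest in replicate 2. Both HSPB6 probe sets had the opposite extreme, with replicate 3 highest, and HSPB2 was lowest in replicate 1.

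On the 9 later arrays HSPB7, CRYAB (bright probe set) and HSPB6 had Pearson r of 0.77 to 0.88 with each other, not all of which passed adjustment. The second CRYAB probe set did not share this, with r of -0.0059 with HSPB7 and of 0.097 and -0.17 with the HSPB6 probe sets. These relations were looked at after the values had been seen, so their p-values are given only as a description. HSPB7 and CRYAB had a Pearson r of 0.78 and a Spearman rho of 0.85 (exact permutation p = 0.0130 and 0.00607), and HSPB7 had r of 0.85 and 0.87 with the HSPB6 probe sets (rho 0.83 and 0.78; exact permutation p = 0.00457 and 0.00253 for r, 0.00827 and 0.0172 for rho). CRYAB and the brighter HSPB6 probe set had r = 0.88 and rho = 0.75 (exact permutation p = 0.00204 and 0.0255). With the dimmer one CRYAB had r = 0.77 and rho = 0.60 (exact permutation p = 0.0209 and 0.0968), which did not pass after adjustment (0.141 for r). Over the family of 54 relations computed, 3 passed for r after Benjamini-Hochberg adjustment: the HSPB6 probe sets with each other (r = 0.93), CRYAB with the brighter HSPB6 probe set (adjusted p = 0.0455, exact permutation) and HSPB7 with the dimmer (0.0455). HSPB7 with CRYAB did not (adjusted p = 0.117, exact permutation), and none passed for rho. With the 2 arrays farthest from the median left out, r was 0.64 for HSPB7 with CRYAB and 0.66 and 0.83 for HSPB7 with HSPB6. Measured as deviations from each age's mean, these were 0.80, 0.93 and 0.94. HSPB1 and HSPB8 had r of 0.27 and -0.22 with HSPB7, and r of 0.79 with each other (rho 0.65; exact permutation p = 0.0118, adjusted p = 0.117). CRYAB and HSPB1 had r = 0.61, and 0.74 as deviations from each age's mean. HSPB3 had r of 0.058 with HSPB7 and 0.23 with CRYAB on the 9 later arrays. With the 2 arrays farthest from the HSPB3 median left out, these were 0.84 and 0.82. That check leaves out different arrays for each second measure, so the HSPB3 values cannot be set against those of CRYAB and HSPB6.

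Several small heat shock proteins are known to be richer in slow, oxidative fibres. The mean log2 signal of 9 slow fibre genes was 13.16, 13.24 and 13.76 at day 0 and lay between 13.42 and 14.09 later, lowest in day 7 replicate 3 and highest in day 14 replicate 1. On the 9 later arrays HSPB7 had r = 0.76 and rho = 0.80 with it (exact permutation p = 0.0188 and 0.0138, adjusted p = 0.141 and 0.149), and the bright CRYAB probe set had r = 0.72 and rho = 0.82 (exact permutation p = 0.0317 and 0.0108, adjusted p = 0.190 and 0.145). Other members ran both ways: r was 0.57 and 0.58 for the HSPB6 probe sets, 0.22 for HSPB3, 0.075 for HSPB1, -0.19 for the second CRYAB probe set, -0.48 for HSPB8 and -0.59 for HSPB2. No relation with the slow or the fast list passed the adjustment over 54 relations. With the 2 farthest arrays left out, r was 0.63 for HSPB7 and 0.48 for CRYAB. The newborn arrays did not lie on this relation, with the highest HSPB7 and CRYAB signals where slow fibre genes were lowest. For the mean of 9 fast fibre genes, HSPB7 had r = -0.04 on the later arrays and 0.67 with the 2 farthest left out. That check leaves out different arrays for the slow and the fast list, so its values cannot be set against each other. Measured as deviations from each age's mean, r for HSPB7 was 0.79 with the slow list and -0.23 with the fast list. Whether the lists differ in this was not tested.

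**Figure D3:**
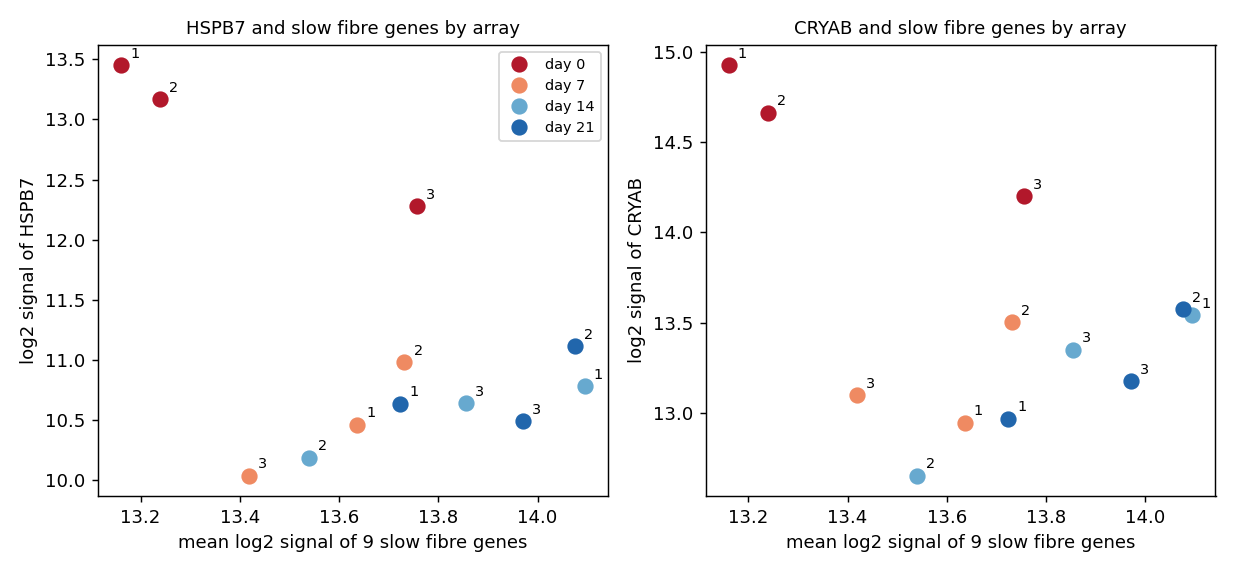
Log2 signal of HSPB7 (left) and of the bright CRYAB probe set (right) against the mean log2 signal of 9 slow fibre genes, with a point for each of the 12 arrays, coloured by age and numbered by replicate. Among the 9 later arrays r with the slow fibre genes was 0.76 and 0.72, and neither passed the adjustment over 54 relations. The newborn arrays lie above the later ones.

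The genes whose signal followed HSPB7 most closely over the 12 arrays, among 5289 searched, were IMPDH2 (r = 0.966), RBM7 (0.965), IFRD2 (0.963), EXOSC10 (0.962), DDAH1 (0.959) and SERBP1 (0.959). On the 9 later arrays alone the same genes had r of 0.629, 0.842, 0.934, 0.316, 0.753 and 0.800 with HSPB7. Thus IFRD2 kept its likeness without the newborn arrays and EXOSC10 did so least. For CRYAB they were RBM7 (0.977), IMPDH2 (0.951), MRLC2 (0.948), EXOSC10 (0.947), IFRD2 (0.939) and QKI (0.933), of which 4 also stood on the HSPB7 list. CRYAB and HSPB7 had r = 0.97 with each other. These correlations describe arrays that fall into a newborn and a later cluster, and carry no p.

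Small heat shock proteins hand their clients to the large, ATP-driven chaperones. The list of heat-inducible large chaperones used here also holds co-chaperones. Of its 10 genes tested, all 10 had lower means at every later age. Their medians were -0.53, -0.65 and -0.85 at days 7, 14 and 21, beside -0.04, -0.04 and -0.02 over the 5296 genes tested. The numbers that fell were 2, 4 and 5 of 10 and none rose, against 5.21%, 8.55% and 7.10% of all genes that fell. HSPD1, the mitochondrial chaperonin, read 16945, 14129 and 11642 at day 0 and 6022 to 8811 later. It fell by 0.90 ± 0.16 at day 7 and 1.13 ± 0.16 at day 21 (log2, SE; limma adjusted p = 0.00583 and 0.00144). At day 21 its lid HSPE1 was at -0.61 ± 0.13 (0.0125), the adaptor STIP1 at -0.996 ± 0.19 (0.0061) and the co-chaperone DNAJA4 at -1.80 ± 0.44 (0.0195), all falls that passed. Leaving out newborn replicate 3 gave 8 falls at day 21 and leaving out newborn or day 21 replicate 1 gave 3, with 9 to 10 of 10 lower in these fits. At day 7 left-out arrays gave 1 to 5 falls and at day 14 2 to 6, and without newborn replicate 1 only 7 of 10 means were lower at day 7 and 8 of 10 at day 14. With the spike ratio in the fit 3 fell at day 21 and 0 at day 7. HSPH1, which has the widest newborn spread of the list, read 6516, 1237 and 788.3 at day 0 and did not pass (-1.30 ± 0.58 at day 21, adjusted p = 0.162).

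Genes of chaperone-assisted selective autophagy, in which HSPB8 works, and other partners of small heat shock proteins were measured for 9 of 15 listed genes. Of these, 2, 2 and 3 fell at days 7, 14 and 21 and none rose, with medians of -0.48, -0.26 and -0.38. Of all genes tested, 5.21%, 8.55% and 7.10% fell and 6.51%, 7.25% and 7.36% rose. BAG3, the scaffold that binds HSPB8, read 9363, 5205 and 4416 at day 0 and 2560.2 to 4196 later, so newborn and later arrays did not overlap. It fell by 0.81 ± 0.24 at day 7 and by 1.08 ± 0.24 at day 21 (log2, SE; limma adjusted p = 0.0495 and 0.0126). A second BAG3 probe set, dimmer and not used for the list, was at -0.94 and -0.98 and did not pass. VCP, a segregase, fell by 0.71 ± 0.20 and 0.78 ± 0.20 (adjusted p = 0.0429 and 0.0244), and the co-chaperone DNAJB4 by 1.09 ± 0.29 at day 21 (0.0288). DNAJB6 did not pass (-0.56 ± 0.28 at day 21, 0.213), and its 4 probe sets ran from -0.72 to 0.12 at that age with no call. The day 7 calls of BAG3 and VCP were lost in 18 and 15 of 23 alternatives and the day 21 calls in 2 and 7. That of DNAJB4 at day 21 was lost in 7 of 23. Left-out arrays gave 0 to 3 falls at day 7, 0 to 2 at day 14 and 0 to 3 at day 21, with 0 at day 21 without day 21 replicate 3 and 1 without newborn replicate 1 or day 21 replicate 2.

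Heat shock factors switch on many chaperone genes. HSF1, the main stress-responsive factor, fell by 0.997 ± 0.23 at day 7 (limma adjusted p = 0.0197; lost in 5 of 23 alternatives) and was at -0.59 ± 0.23 at day 21 (0.115). HSF2 fell by 1.06 ± 0.32 at day 21 (0.0486), a call lost in 17 of 23 alternatives. HSBP1, which binds and restrains HSF1, differed by 0.16 ± 0.13 at day 21 (0.473). Its 2 probe sets ran from -0.18 to 0.16 at that age, with opposite signs and no call. Of the other small heat shock proteins with a symbol on the array, HSPB11, a family member by name that works in cilia, was at -0.53 ± 0.27, -0.90 ± 0.27 and -0.83 ± 0.27 (adjusted p = 0.247, 0.0465 and 0.0647; the day 14 call was lost in 15 of 23 alternatives), and ODF1 of sperm tails was dim.

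The filament and Z-disc proteins that these chaperones bind were tested for 11 genes, of which 2, 2 and 1 fell and 0, 1 and 0 rose at days 7, 14 and 21, with medians of -0.13, -0.20 and -0.19. Of all genes tested, 5.21%, 8.55% and 7.10% fell and 6.51%, 7.25% and 7.36% rose. With scaling on hybridization controls 3, 4 and 4 of the 11 fell and none rose. Left-out arrays gave 1 to 2, 0 to 2 and 0 to 2 falls and 0 to 1, 0 to 2 and 0 to 2 rises. At day 14 no gene fell without newborn replicate 2 or without day 14 replicate 2 or 3, and at day 21 none fell without newborn replicate 2 or day 21 replicate 3. TCAP, the titin cap at the Z-disc, read 16413 to 17748 at day 0 and 6899.6 to 7267 at day 7, with no overlap, and fell by 1.26 ± 0.17 (log2, SE; limma adjusted p = 0.00136). By day 21 it was at -0.48 ± 0.17 (0.0802). Desmin (DES), the intermediate filament that CRYAB protects, fell by 0.49 ± 0.14 at day 7 (0.0469, lost in 16 of 23 alternatives) and was at -0.38 ± 0.14 at day 21 (0.0932). Filamin A (FLNA) fell by 0.88 ± 0.24 at day 21 (0.0296, lost in 6 of 23, among them without newborn replicate 2 or 3 and without day 21 replicate 2 or 3). Titin (TTN), the giant spring bound by CRYAB, rose by 0.43 ± 0.12 at day 14 (0.0389) and was at 0.39 ± 0.12 at day 21, which did not pass (0.0608). The list's 1 rise at day 14 was lost without newborn replicate 1 or 2, without any one day 7 or day 14 array and without day 21 replicate 2. A second TTN probe set, dimmer and not used for the list, rose by 1.03 at day 21.

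Kinases that phosphorylate small heat shock proteins, with the partners on the same list, were tested for 9 of 15 genes, of which 0, 1 and 1 rose and 0, 1 and 0 fell at days 7, 14 and 21, with medians of 0.20, 0.05 and 0.31. One gene of 9 lies close to the shares of all genes that rose (6.51%, 7.25% and 7.36%) or fell (5.21%, 8.55% and 7.10%). With scaling on hybridization controls the medians turned to -0.10, -0.32 and -0.07. PRKD2, a protein kinase D, read 169.2, 239.7 and 216.1 at day 0 and 247.9 to 540.4 later. It rose by 0.96 ± 0.24 at day 21 (log2, SE; limma adjusted p = 0.023), a call lost in 6 of 23 alternatives, scaling on hybridization controls and leaving out newborn replicate 1 or day 21 replicate 1 or 3 among them. PRKACA, the protein kinase A catalytic subunit, fell by 0.76 ± 0.23 at day 14 (0.0456) and was at -0.52 ± 0.23 at day 21 (0.162). It was the list's 1 fall at day 14, and the list had none there when any array but newborn replicate 1 or day 14 replicate 1 was left out. DMPK, the myotonic dystrophy kinase that HSPB2 binds, was at 0.99 ± 0.35 at day 7 (0.0942). MAPK12, the p38 kinase of muscle, was at 0.42 ± 0.19 at day 21 (0.181).

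Genes that mark the fibre types were mostly higher after birth. Of 9 slow fibre genes 1, 5 and 7 rose and 0, 1 and 1 fell, with medians of 0.28, 0.74 and 0.78, against 6.51%, 7.25% and 7.36% of all genes that rose. The gene that fell was calsequestrin 2 (CASQ2), which fell by 1.90 ± 0.40 at day 21 (limma adjusted p = 0.00912), and TPM3 was at -0.21 at day 14 and -0.01 at day 21, which did not pass (0.492 and 0.969). Probe sets of a gene did not all go the same way. At day 21 the 3 TPM3 probe sets ran from -0.02 to 0.53 and the 4 ATP2A2 probe sets from -0.46 to 0.78. Only 1 ATP2A2 probe set was called, the one counted among the 7 rises. TNNT1 rose by 1.37 ± 0.23, TNNC1 by 1.11 ± 0.20 and MYL2 by 1.01 ± 0.17 at day 21 (adjusted p = 0.00344, 0.00517 and 0.00363). Of 9 fast fibre genes 1, 1 and 3 rose and none fell, led by MYH2, the fast 2A myosin heavy chain, at 2.74 ± 0.28 (0.000482). At day 21 the slow count was 3 when newborn replicate 1, newborn replicate 2, day 21 replicate 2 or day 21 replicate 3 was left out, and 4 without day 21 replicate 1. The fast count was 7 without newborn replicate 3 and 1 without newborn replicate 1 or 2 or day 21 replicate 3. At day 14 left-out arrays gave 2 to 7 slow rises and 1 to 5 fast rises. With scaling on hybridization controls 0, 2 and 3 slow genes rose, and the medians were -0.03, 0.37 and 0.40 for the slow list and -0.03, -0.03 and 0.00 for the fast list.

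**Figure D4:**
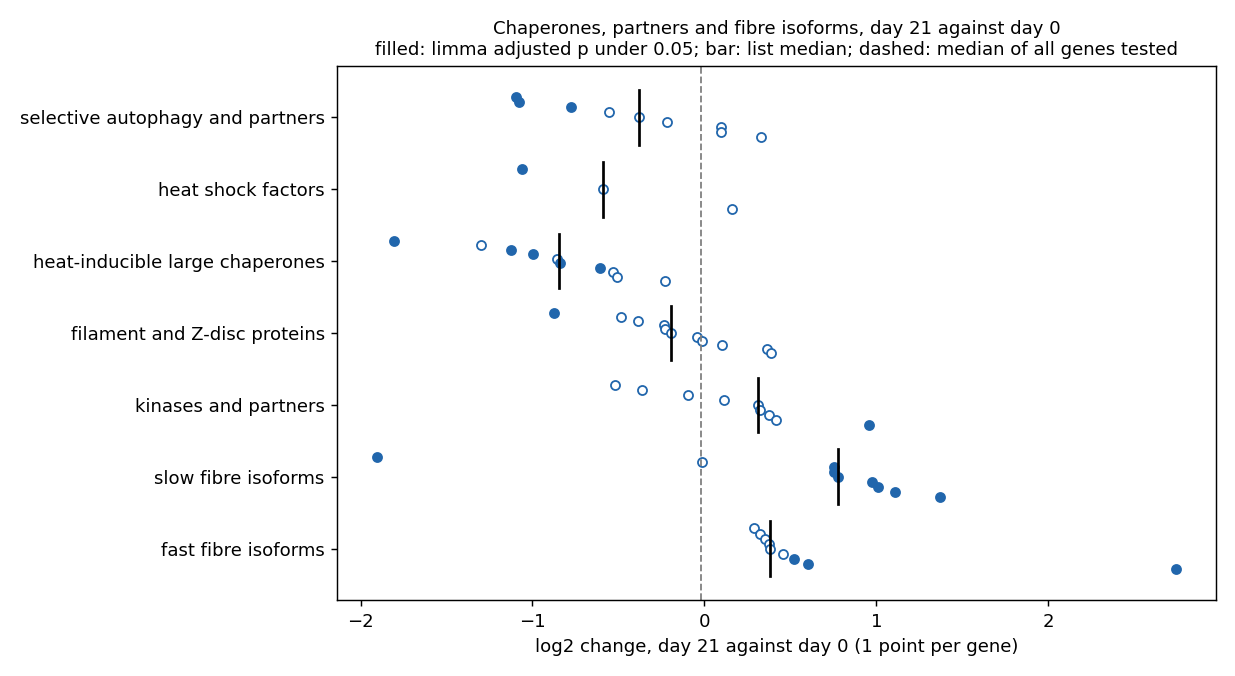
Log2 change from day 0 to day 21 of each tested gene in 7 gene lists, with filled points for genes that passed a limma adjusted p of 0.05, a bar at each list's median and a dashed line at the median of all genes tested (-0.02). The 10 genes on the list of heat-inducible large chaperones, which holds co-chaperones too, all lie below 0 with a median of -0.85. Of the slow fibre genes, 7 of 9 lie above 0 as filled points.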

How the data were processed

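The authors deposited 1 intensity signal per probe set and array on a linear scale, from MAS5 per the submitters' processing notes (no version given). Per the labels' protocols, 6 ug of Trizol-extracted RNA from frozen tissue was turned into biotinylated cRNA. The log2 of each signal was used without renormalizing or an offset. Of 24123 probe sets, 124 controls and then the lowest 40% by mean log2 signal (limit at a signal of 90.3) were left out, which left 14399. Gene names came from the probe table, in which 10099 probe sets have 1 symbol, 198 several and 13826 none.

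A model with 1 mean for each age was fitted to all 12 arrays (lmFit, then eBayes with trend, in limma 3.58.1 under R 4.3.3), and p-values were adjusted by Benjamini-Hochberg over 14399 probe sets with a threshold of 0.05. The fitting script was tested on simulated data. A gene in a list is represented by its brightest tested probe set, up to 4 members of each list are named in order of the F test, and 6 genes most like HSPB7 and CRYAB by Pearson r. The members and lists were chosen with earlier results of these data known, and list counts are descriptions. Alternatives were no filter, a filter of 60%, quantile normalization, median centring, scaling on 27 hybridization controls, an offset of 29.7, no variance trend, array weights, a replicate block, the 3′ to 5′ ratio of the poly-A spikes (12 probe set pairs) as a covariate, only the arrays compared, both probe sets of a gene averaged, and each array left out. No sequences were used here.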

Additional observations from a re-analysis of the deposited data

How the results depend on the processing

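Among the 8 probe sets other than HSPB7, the count called at day 7 (1) became 2 with scaling on hybridization controls and 0 with the spike ratio as a covariate. The count at day 14 (2) became 5 with scaling on hybridization controls, 3 with median centring, 1 with array weights and 1 with the spike ratio. The count at day 21 (2) became 3 with scaling on hybridization controls and 1 without the variance trend, with array weights, with the spike ratio and with only the arrays compared. The F test over the ages (1) called 2 with the 60% filter, 2 with median centring, 3 with scaling on hybridization controls and 0 with the spike ratio. Leaving out each array gave 1 to 2 calls at day 7, 1 to 2 at day 14, 1 to 2 at day 21, 1 to 2 in the F test and 0 to 1 for the first week against the third. The later steps had 0 calls in every alternative run. HSPB7 lay between -2.82 and -2.23 at day 7, -2.80 and -2.19 at day 14, and -2.60 and -1.98 at day 21. The CRYAB to HSPB2 difference was 1.45 with the offset and 0.99 to 1.69 with an array left out. With the replicate number as a block the counts were 1, 2 and 2 at days 7, 14 and 21 and 1 in the F test, so the block changed none of these counts. Replicate numbers were not taken as pairs. Arrays of the same number at different ages had deviations correlated at -0.198 to 0.112, and arrays of different number at -0.185 to 0.236. With 3 arrays per age these values cannot exclude a pairing. Of 2545 alternatives to 110 single-gene results, 171 lost a call, 44 gained one and none changed sign with a call. The cause of these changes was not tested. The 3 arrays per age limit what can be seen of small changes, such as those of HSPB2 and HSPB3. The second CRYAB probe set is also dim, and which transcript it reads is uncertain.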
